A study of Canis lupus familiaris with 20 samples.

Results

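OS-2 is a cell line of dog osteosarcoma, a malignant bone tumour, and the libraries described here are 2 of RNA from OS-2 cells (A and B) and 2 of RNA from exosomes in the supernatant of OS-2 cultures (1 and 2). They were chosen by their titles and are 4 of the 20 libraries of the series, and the comparison covered all 24579 gene identifiers of the deposited count table. The other libraries come from cells and exosomes of the lines OS-1, OSCA-78 and OSCA-8 and from exosomes of OSCA-32, and the study sought a set of exosomal transcripts that reveals remaining tumour in dogs. No treatment or genotype is given for any group. The labels do not say whether the 2 libraries of a group came from separate cultures, so the spread between them may be technical.

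Exosomes are small vesicles that form inside endosomal compartments and are released when these fuse with the cell surface. They carry membrane proteins, cytosol and RNA of the cell that sheds them, and the RNA they hold is known to include fragments and short non-coding species beside messenger RNA. Preparations made by precipitation can also bring down RNA held in protein or lipoprotein particles. Exosome material here was enriched with the precipitation reagent ExoQuick, and differences between vesicle RNA and cell RNA cannot be told apart from what that step selects. Every value below is a share of the reads counted in a library, not an amount of RNA per cell or per vesicle. Gene symbols are not paired with the identifiers in the table, and marker genes of bone or of vesicles were therefore not checked.

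The cell libraries held 11219873 and 12715916 counts and the exosome libraries 481487 and 453481. Taking 3 counts as the limit for a gene without a count, the limit was 0.267 and 0.236 CPM (a gene's share of its library, in parts of 1e6) in cells A and B and 6.23 and 6.62 CPM in exosomes 1 and 2. These limits, and the Clopper-Pearson 95% intervals below, cover counting error only. With 2 libraries against 2, an exact two-sided permutation test of a single measure cannot go below p = 0.333, so measures of whole libraries are given without a test.

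A handful of genes filled most of the OS-2 exosome libraries. There were 6 genes with over 1% of the counts of at least 1 exosome library. Together they took 54.7% of exosome library 1 (interval 54.5% to 54.8%) and 60.9% of library 2 (60.8% to 61.0%). In OS-2 cells the same 6 genes took 0.0394% of library A (0.0382% to 0.0405%) and 0.124% of library B (0.122% to 0.126%). The 2 groups were far apart, although the cell libraries also differed from each other by more than counting error. Because these genes were picked by their share of OS-2 exosomes, the fold changes and adjusted p-values given for them describe them and are no independent evidence.

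The most abundant of them, ENSCAFG00000029384, took 32.3% of exosome library 1 and 26.5% of library 2. It had 840 counts in cells A (0.00749%) and 10464 in cells B (0.0823%). Even the lower exosome share was 322 times the higher cell share. The model put the log2 fold change at 9.96 (SE 3.40, edgeR quasi-likelihood test, Benjamini-Hochberg adjusted p = 0.0219). That call was lost without either cell library, with a log2 fold change of 9.04 and an edgeR adjusted p of 0.124 without library A, and 12.51 and 0.0667 without library B. The second, ENSCAFG00000029369, was all but missing from OS-2 cells, with 0 counts in library A and 4 in library B. It had 47187 counts in exosomes 1 (9.80% of the library) and 85756 in exosomes 2 (18.9%). The model gave 20.22 on the log2 scale (SE 6.81, edgeR adjusted p = 0.0246), a value that depends on the prior count because the cells had so few reads. The call was lost in 6 of 12 alternative analyses that gave an adjusted p, among them those without cells A (edgeR adjusted p = 0.134), without cells B (0.122) and without exosomes 2 (0.0531). It was also lost with the cell letter as a block across lines (log2 fold change 27.30, edgeR adjusted p = 0.0563).

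The third gene took 5.31% and 4.88% of the 2 exosome libraries, the closest agreement between replicates among the 6. In cells it had 121 counts in library A and 2277 in library B. The lower exosome share was 273 times the higher cell share (log2 fold change 9.68, SE 3.43, edgeR adjusted p = 0.0302), and the call was lost in 6 of 13 alternatives. These included leaving out any 1 of the 4 OS-2 libraries (edgeR adjusted p = 0.142 without cells A, 0.0723 without cells B, 0.0601 without exosomes 1 and 0.0560 without exosomes 2), and the log2 fold change was 8.72 without cells A and 12.79 without cells B. The fourth and the fifth gene behaved alike. The fourth took 4.17% and 5.39% of exosomes 1 and 2 and 0.0179% and 0.0131% of cells A and B. The fifth took 2.85% and 3.82% of the exosome libraries and 0.0127% and 0.00961% of the cell libraries. For every count of the fifth gene there were 1.46 and 1.41 of the fourth in the exosomes and 1.41 and 1.37 in the cells. Their log2 fold changes were 8.91 (SE 1.54, edgeR adjusted p = 1.18e-04) and 8.87 (SE 1.40, edgeR adjusted p = 5.09e-05), and both calls held in 13 of 13 alternatives. The sixth gene separated the exosome replicates, at 0.265% of library 1 and 1.44% of library 2, a ratio of 5.43. It took 0.000285% and 0.000967% of the cell libraries (log2 fold change 11.11, SE 1.42, edgeR adjusted p = 6.63e-06), and this call also held in 13 of 13 alternatives. Its log2 fold change was 9.17 without exosomes 2, 10.43 without cells A, 11.85 without exosomes 1 and 12.20 without cells B.

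**Figure D1:**
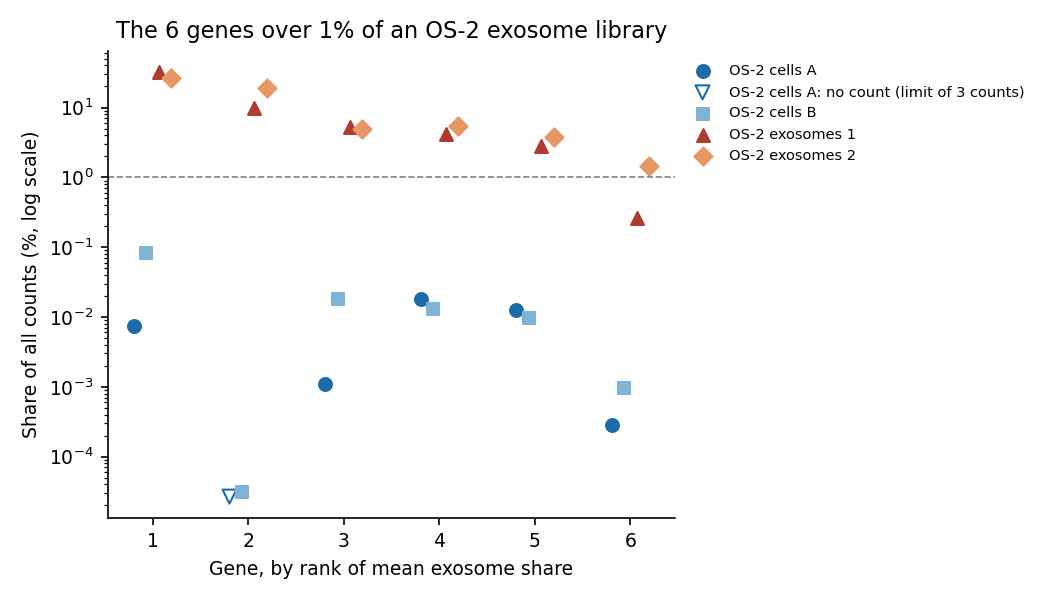
Share of all counts (percent, log scale) of the 6 genes over 1% of an OS-2 exosome library, in the 2 cell and 2 exosome libraries, with genes ordered by mean exosome share and the dashed line at 1%. All exosome points lie above all cell points of the same gene, and the gap between the nearest exosome and cell library is at least 225-fold.

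The cell replicates did not agree on these genes. Cells B had 11.0 times the share of the first gene and 16.6 times that of the third that cells A had, but only 0.737 and 0.759 times that of the fourth and the fifth. The first gene was higher in library B than in library A in the cells of 4 of 4 lines, by 4.07 to 11.0 times. The fourth and the fifth were lower in library B in 4 of 4 lines. The second was higher in library B in 4 of 4 lines, though with only 0 and 4 counts in OS-2 cells A and B. The third and the sixth followed no common direction, being higher in library B in 2 of 4 lines and lower in 2. What the letters stand for is not given in the sources used here.

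The 1% limit fell where replicates disagreed. The gene just inside it was the sixth, described above. The gene just outside took 0.948% of exosomes 1 (4565 counts) but 0.0148% of exosomes 2 (67 counts), with 2 counts in each cell library. Both were far higher in 1 exosome library than in the other, whereas the 5 leading genes were over 1% in both.

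Once the 6 genes were left out, 218267 counts remained in exosomes 1 and 177304 in exosomes 2, against 11215456 and 12700154 in cells A and B. These remainders are called the counts left. The limit for a gene without a count rose to 13.7 and 16.9 CPM of the counts left in the exosomes. With all genes, 4 genes made up 50% of exosomes 1 and 3 genes 50% of exosomes 2, against 801 and 844 genes in the cells. Without the 6 genes the exosomes needed 1551 and 1347 genes for 50% of the counts left, and the cells 800 and 844. For 90% they needed 9289 and 8699 genes, and the cells 5213 and 5124. The exosome libraries thus looked concentrated when all genes were counted and more evenly spread than the cells when the 6 genes were set aside. The 10 leading genes of the counts left took 7.98% and 7.55% in exosomes and 6.59% and 5.79% in cells, so the tops of the 2 profiles were then of similar weight.

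More genes had a count in the exosomes than in the cells despite the lower totals. Exosomes 1 and 2 had counts in 17636 and 16565 genes, and cells A and B in 15210 and 14757. Thinned to 453481 counts, the smallest total of the 4, the expected numbers were 17506 and 16565 in exosomes and 11831 and 11546 in cells. Without the 6 genes and thinned to 177304 counts, they were 17142 and 16559 in exosomes and 10549 and 10353 in cells. The gap between the fractions was wider in this second form. With all genes kept and thinned to the same 177304 counts, the expected numbers were 14500.5 and 13424.7 in exosomes and 10552.5 and 10355.9 in cells. The 6 genes then took most exosome reads, so the wider gap partly follows from leaving them out. Most genes of the exosomes had few reads. The median over genes with a count was 6 and 5 counts in exosomes and 204 and 246 in cells.

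All 4 libraries shared 11395 genes with a count. Another 2292 genes had counts in both exosome libraries and none in either OS-2 cell library. These took 2.46% of exosomes 1 (2.41% to 2.50%) and 2.60% of exosomes 2 (2.55% to 2.64%), or 5.42% and 6.64% of the counts left. Their median was 3 counts in each exosome library. Cells of the other lines had a count for 1339 of them, and exosomes of the other lines for 2290. A single read in any of the 6 cell or 10 exosome libraries of other lines was enough for this. The share of all genes that meet the same rule is not given, so these numbers are not read as a trait of the set. The opposite set was small. There were 710 genes with counts in both cell libraries and none in the exosomes, and they took 0.26% and 0.265% of the cell counts.

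Abundance in the cells was followed into the exosomes in 5 equal classes of 3042 genes, formed from cells A alone, plus the 9369 genes without a count there. Class 5 held the genes from 75.7 CPM upward and class 1 those up to 0.980 CPM. Shares in cells B and in the exosomes are independent of this grouping. Class 5 took 76.6% of cells B and 30.7% and 31.0% of exosomes 1 and 2. With all counts such shares depended on which cell library formed the classes, since 3 of the 6 genes changed class: with classes from cells B, class 5 took 75.9% of cells A and 67.7% and 61.8% of the exosomes. Of the counts left, class 5 from cells A took 76.7% of cells B and 52.3% and 55.7% of the exosomes, and class 5 from cells B took 75.9% of cells A and 50.9% and 54.2% of the exosomes. It was lower in the exosomes in all of these forms. Class 4 gave a different answer with and without them. It took 15.7% of cells B and 39.4% and 32.6% of the exosomes when all genes were counted. ENSCAFG00000029384 alone took 32.3% and 26.5% of the exosomes, more than the whole excess. With classes from cells B, which put that gene in class 5, the direction turned, and class 4 took 15.6% of cells A and 7.20% and 6.15% of the exosomes. Of the counts left it took 15.6% of cells B and 15.8% and 15.6% of the exosomes, nearly equal values.

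The scarce classes made up the difference. Of the counts left, class 3 took 6.17% of cells B and 9.0% and 8.56% of exosomes 1 and 2. Class 2 took 1.44% of cells B and 7.98% and 7.28% of the exosomes. Class 1 took 0.112% of cells B and 6.95% and 4.26% of the exosomes, where the ratio between the replicates was larger than in classes 2 to 5. Genes without a count in cells A took 0.0290% of the counts left in cells B and 7.98% and 8.63% in the exosomes. With all counts this last group took 13.4% and 22.3% of the exosomes, most of it ENSCAFG00000029369. With classes from cells B that gene fell in class 1, which then took 12.8% and 20.6% of the exosomes, and genes without a count in cells B took 4.08% and 3.65%.

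**Figure D2:**
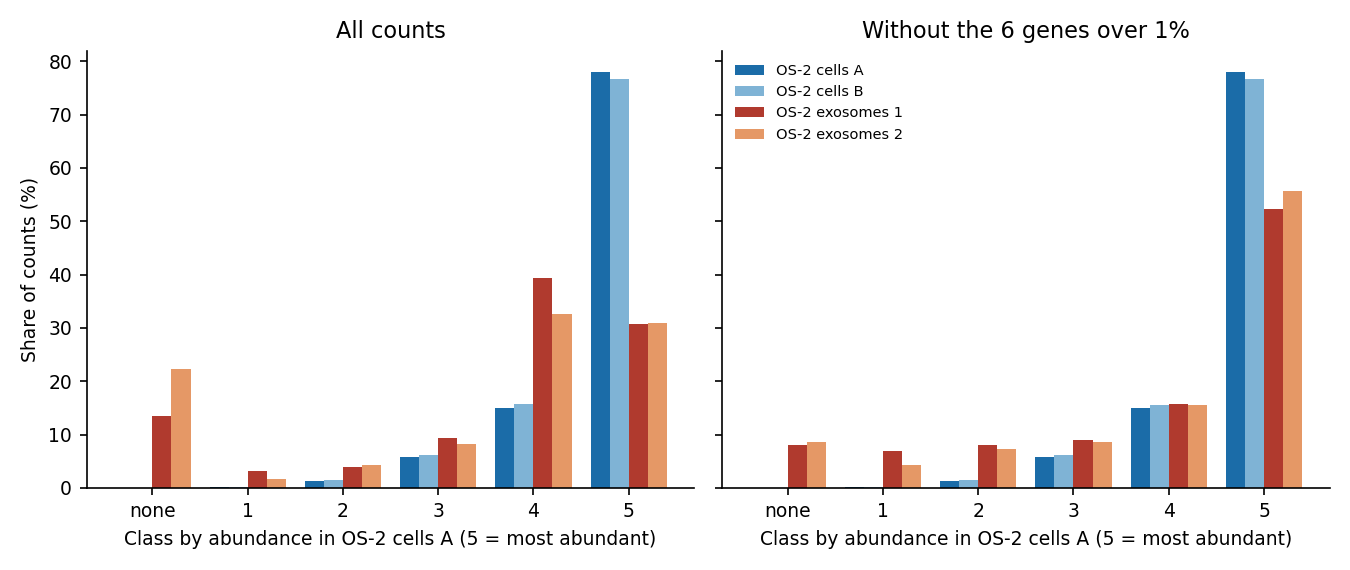
Share of counts (percent) taken by genes grouped by their abundance in OS-2 cells A, in each of the 4 OS-2 libraries, with all genes (left) and without the 6 genes over 1% (right). Class 5 stays lower in exosomes in both panels, while class 4 is higher in exosomes with all genes and about equal (15.6% to 15.8%) without the 6, and with classes from cells B the left panel would give class 5 67.7% and 61.8% of exosomes 1 and 2.

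The medians of single genes tell the same of the counts left. The median class 5 gene stood at 142 CPM in cells B and 101 and 102 CPM in the exosomes, and the median class 4 gene at 46.7 CPM in cells B and 45.8 and 45.1 CPM in the exosomes. Among the 3919 genes with at least 50 CPM in both cell libraries, other than the 6, the median log2 ratio of exosomes to cells was -0.46 on this scale. It was -0.49 for exosomes 1 and -0.48 for exosomes 2. For 2786 of these genes (71.1%) the ratio lay within a factor of 2. It was lower than that for 1055 genes and higher for 78. These genes were picked for high values in the same 2 cell libraries that the ratio is taken against. Part of the excess on the lower side is therefore built in, on both scales, and how much was not tested. Both exosome libraries were below both cell libraries for 2024 of the 3919 genes and above both for 533. With 2 libraries against 2, some genes separate either way without any difference. The share over all genes is not given on this scale, so these 2 numbers are a description only. With all counts the answer differed. The median log2 ratio was then -1.70, the ratio lay within a factor of 2 for 637 of the 3919 genes (16.3%), and it was lower than that for 3266 and higher for 16. The edgeR test with TMM scaling, described next, called 16 of the 3919 genes higher and 1716 lower. Over all genes tested that way, 32.6% were higher and 13.5% lower. Scaled to the counts left, the test called 54 of the 3919 higher and 747 lower. The choice of genes by their cell levels bears on these calls too. Only 3 of the 3919 genes had no exosome count at all. With 3 counts over both exosome libraries taken as the limit, these were at least 9.06-fold to 33.5-fold lower in the counts left, and at least 21.4-fold to 79.1-fold lower with all counts. Genes that OS-2 cells hold in quantity were thus nearly all found in the exosomes, but how far below the cells they lay depended on whether the 6 genes were counted.

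The test of each gene used edgeR with scaling by TMM, a trimmed mean of gene-wise ratios, in one fit of 18 libraries of the 4 lines with both fractions. Of 16211 genes tested, 5286 were higher in OS-2 exosomes than in OS-2 cells (32.6%) and 2194 lower (13.5%) at an adjusted p under 0.05. A fold above 4 was reached by 5132 genes in the higher set and 994 in the lower set, and a fold above 16 by 4441 and 114. The higher genes, the 6 among them, took 64.4% and 68.4% of exosomes 1 and 2 and 0.775% and 0.758% of cells A and B. Without the 6 they took 21.5% and 19.2% of the counts left in exosomes and 0.736% and 0.634% in cells. The lower genes took 15.3% and 15.4% of the counts left in exosomes and 40.3% and 44.7% in cells. Both sets were called on these same OS-2 libraries, so the direction of their shares was fixed by the calls. The shares give the weight of each set and are no independent evidence. Genes tested and not called still made up most of the counts left, 60.6% and 62.9% in exosomes and 58.2% and 54.0% in cells.

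These 2 counts were not bound in the same way. Of the higher genes, 2616 had no OS-2 cell count and 3387 had at most 3. Such genes could enter the test through exosome counts of any line, and in exosomes 3 counts already make 6.23 CPM or more. Of the 16007 genes with an OS-2 cell count, 5295 lay below 3.21 CPM in the cells, the level of 3 counts over both exosome libraries, and could not have been seen lower. Depth thus limited the 2 directions unequally. The balance also moved with the scaling. Scaled to all counts, 4867 genes were higher and 4277 lower. Scaled to the counts left, 6147 were higher and 890 lower, out of 16725 tested. The median log2 fold change over all genes tested was 0.14 with TMM, -0.38 with all counts and 0.82 with the counts left. Without exosomes 1 the number of lower genes was 1346. With all 18 libraries thinned to 259078 counts, 2472 genes were higher and 657 lower.

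**Figure D3:**
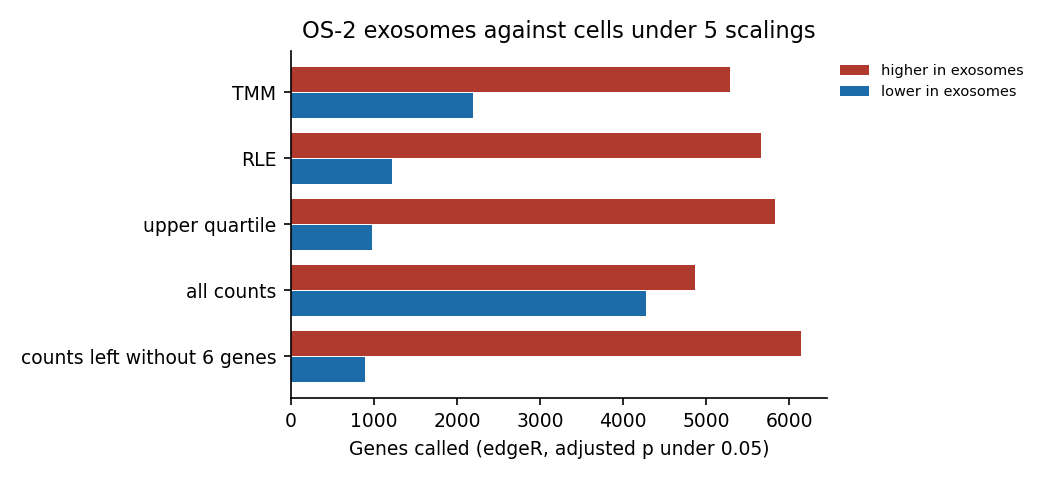
Number of genes called higher or lower in OS-2 exosomes than in OS-2 cells (edgeR, adjusted p under 0.05) under 5 scalings. The number higher runs from 4867 to 6147 and the number lower from 890 to 4277, so the balance of directions rests on the scaling.

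Most of the genes called lower were abundant in cells, where a fall could be seen. So that the classes were formed from one cell library and the fold changes taken against the other, the fit was repeated without cells A. OS-2 cells then had 1 library, which was assumed to vary like the other groups. It called 5345 of 17630 genes higher (30.3%) and 1811 lower (10.3%). In class 5, 20 of 3042 genes were higher and 1171 lower (38.5%), with a median log2 fold change of -1.14. In class 4, 29 of 3040 were higher and 475 lower (15.6%), with a median of -0.76. In class 3, 100 of 2924 were higher and 147 lower. Class 1 genes lay below the level at which a fall could be seen and entered the test through exosome counts, so their direction was nearly fixed beforehand and is not read here. Class 2, from 0.980 to 9.36 CPM in cells A, lay partly below that level and is not read either. The balance in class 3 turned with scaling. With all libraries it had 120 higher and 159 lower with TMM, but 235 and 78 with RLE, 291 and 60 with upper quartile scaling and 311 and 55 with the counts left. Class 4 kept its direction, but its counts moved. With all libraries and the counts left as the scale, 109 class 4 genes were higher and 167 lower, against 26 and 600 with TMM. In class 5 these numbers were 37 and 662 against 12 and 1425, an excess of lower genes under both scales. In these fits with all libraries, cells A both formed the classes and entered the fold changes. Part of that excess is therefore built in, and how much was not tested.

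**Figure D4:**
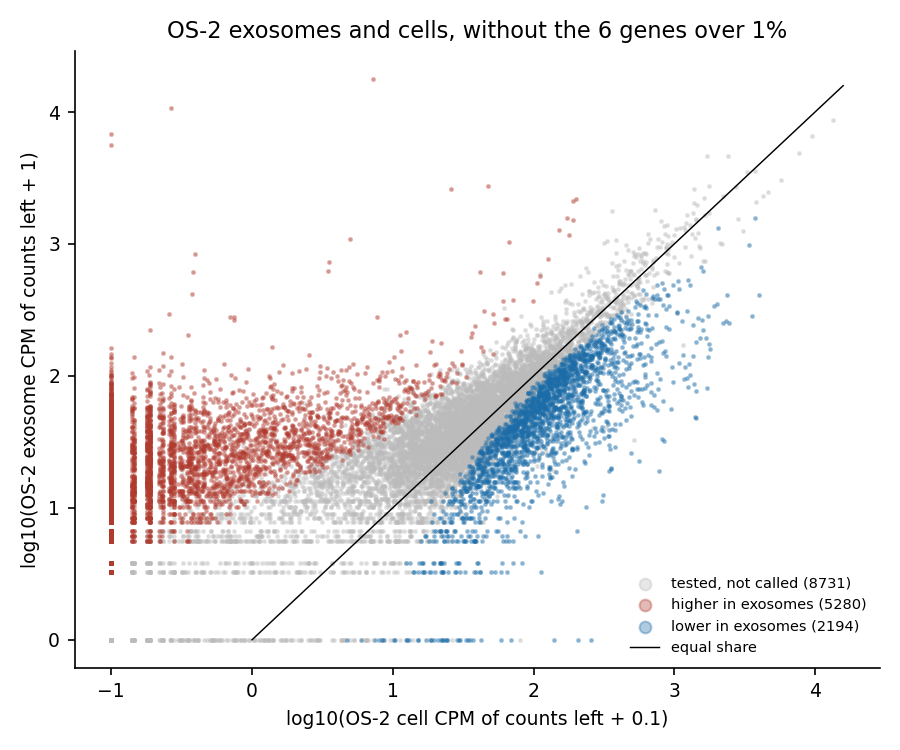
Mean CPM of the counts left in OS-2 exosomes (log10 of the value plus 1) against OS-2 cells (log10 of the value plus 0.1), 1 point per tested gene other than the 6, coloured by the edgeR call with TMM scaling. Genes called lower lie at the right, where cells are abundant, genes called higher lie mostly at the left, and the rows near the bottom are genes with few exosome counts. Genes scarce in cells could not be seen lower and could enter the test through exosome counts, so this layout was partly fixed by depth.

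Among the lower genes with the highest cell levels were ENSCAFG00000001433 and ENSCAFG00000014345. ENSCAFG00000001433 stood at 3728 and 3774 CPM in cells A and B and at 650 and 668 CPM in exosomes 1 and 2. The replicates of each fraction were close and the groups did not overlap. The cell mean was 5.69 times the exosome mean with all counts but 2.39 times with the counts left. Its log2 fold change with TMM was -1.88 (SE 0.70, edgeR adjusted p = 0.0329), and the call was lost in 10 of 15 alternatives, among them the counts left (log2 fold change -1.26, edgeR adjusted p = 0.130). It was also lost without cells A (edgeR adjusted p = 0.0637), cells B (0.0726), exosomes 1 (0.164) or exosomes 2 (0.0996), and with the cell letter as a block across lines (log2 fold change -1.55, edgeR adjusted p = 0.0620). ENSCAFG00000014345 stood at 3221 and 4745 CPM in the cells and at 166 and 174 CPM in the exosomes, again without overlap. The cell mean was 23.4 times the exosome mean with all counts and 9.82 times with the counts left. The model put it at -3.92 on the log2 scale (SE 1.04, edgeR adjusted p = 0.00436), and the call was lost in 1 of 15 alternatives, without exosomes 1 (edgeR adjusted p = 0.0561). What either gene encodes is not reported here.

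The OS-2 exosome replicates resembled each other more than either resembled a cell library. Across the 24573 genes other than the 6, Spearman's rho was 0.79 between the 2 exosome libraries, 0.70 to 0.71 between an OS-2 exosome and an OS-2 cell library, 0.70 to 0.72 between an OS-2 exosome library and cells of other lines, and 0.65 to 0.77 between it and exosomes of other lines. Over all these genes the OS-2 exosomes were thus no closer to OS-2 cells than to other cells. Over all genes, rho was 0.96 between cells A and B, which are far deeper. Within class 5 the OS-2 exosomes correlated with each other at 0.79, with OS-2 cells at 0.47 to 0.55, with cells of other lines at 0.38 to 0.46 and with exosomes of other lines at 0.07 to 0.45. Class 5 was itself defined in OS-2 cells A, which gave 0.55 and 0.54 with exosomes 1 and 2. Cells B, not used for that grouping, gave 0.47 with each. The highest values among cells of other lines, 0.46 and 0.45 in OS-1 cells A, were close to those of cells B. These correlations are across genes, which are not independent replicates, and they also reflect the depth of each library. The 2 exosome libraries differed by more than counting noise, with a chi-square of 2.82 per degree of freedom over 8009 genes of the counts left, so they were treated as separate libraries.

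OS-2 was set beside the other 3 lines with both fractions to see where its exosome to cell difference departed from theirs. The 6 genes took 54.7% and 60.9% of OS-2 exosomes but 0.749% to 25.6% of the 10 exosome libraries of other lines (median 7.12%). In cells of other lines they took 0.0485% to 0.126%, against 0.0394% and 0.124% in OS-2 cells. Other lines varied within themselves, with 18.1%, 12.3%, 1.59% and 0.749% in OS-1 exosomes and 20.4% and 1.49% in those of OSCA-78. Since the 6 were picked on OS-2 exosomes, this contrast is a description. Class 5 took 52.3% and 55.7% of the counts left in OS-2 exosomes and 23.8% to 31.2% in exosomes of other lines, without overlap. Leaving out the 6 genes removed 54.7% and 60.9% of the OS-2 exosome counts but 0.749% to 25.6% of the others. The size of this gap therefore depends on a choice made on OS-2 exosomes, and it is a description too. Cells of the other lines gave class 5 68.1% to 73.0% of their counts left, and OS-2 cells 76.7% (B) and 78.1% (A). With all counts class 5 took 30.7% and 31.0% of OS-2 exosomes and 23.4% to 25.5% of exosomes of other lines. It then included 2 of the 6 genes, the fourth and the fifth. The fourth took 4.17% and 5.39% of OS-2 exosomes 1 and 2 and at most 1.29% of exosomes of other lines. For the fifth the values were 2.85%, 3.82% and at most 0.971%. These 2 genes were picked on OS-2 exosomes, so the gap with all counts partly follows from that choice and is a description.

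**Figure D5:**
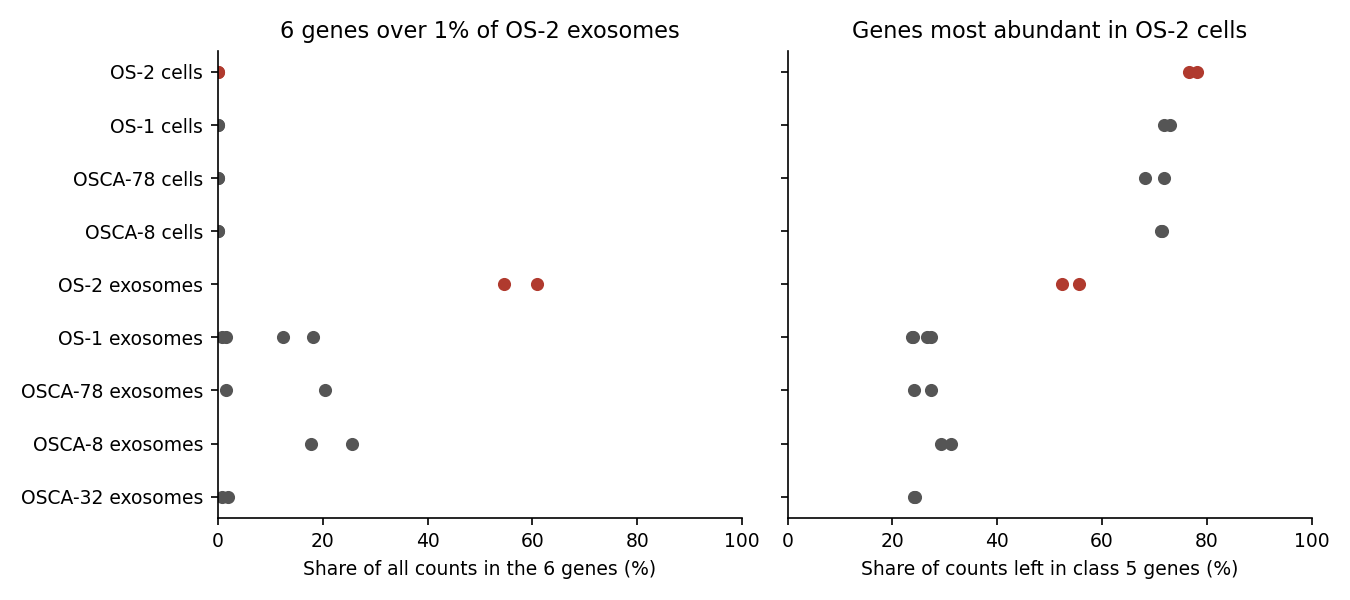
Share of all counts in the 6 genes over 1% of an OS-2 exosome library (left, percent) and share of the counts left in class 5, the genes most abundant in OS-2 cells A (right, percent), 1 point per library, OS-2 in red. OS-2 exosomes lie above all other exosome libraries in both panels, and on the right they are lower than all cell libraries. The 6 genes were picked on OS-2 exosomes, and that choice shapes the left panel and also the counts left on the right.

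The interaction of line and fraction tested this gene by gene. The OS-2 difference was above the mean difference of OS-1, OSCA-78 and OSCA-8 for 1580 of 16211 genes (9.75%) and below it for 617 (3.81%), by edgeR at an adjusted p under 0.05. Of the 1580, 580 were called higher in OS-2 exosomes than in OS-2 cells (36.7%, beside 32.6% of all genes tested), 133 were called lower and 867 were not called in OS-2. Abundant genes were frequent in this set with TMM scaling. In the fit without cells A, which called 1180 of 17630 genes above (6.69%) and 505 below (2.86%), 450 of 3042 class 5 genes were above (14.8%) and 100 below (3.29%). In class 4, 126 of 3040 were above and 97 below, and in class 3, 63 of 2924 and 94. In class 1, 262 of 2064 were above and 56 below, but with all libraries its balance turned with all counts, to 128 above and 283 below, and only 3 and 1 were called with the 6 genes left out and all libraries thinned to 177304 counts. With all libraries, the median class 5 difference was 0.54 log2 units above that of all genes with TMM. With the 4 other scalings it was 0.54 to 0.56 above it. A change of scale moves all genes by nearly the same amount, so this agreement was nearly fixed beforehand. It does not show that the direction in class 5 holds under every scaling.

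The total of these calls moved with the scaling. Scaled to all counts, 575 genes were above and 3436 below, and the median over all genes was -1.30, against 0.05 with TMM. Scaled to the counts left, 1127 were above and 842 below, and class 5 then had 498 above and 183 below. With all counts the direction in class 5 turned, to 198 above and 833 below, with a median of -0.75 against 0.60 with TMM. Cells A formed class 5 and also entered these fits. Without cells B the numbers were 628 and 274, and without exosomes 1 or 2 they were 823 and 279 or 875 and 298. For the 6 genes, picked for their share of OS-2 exosomes, the interaction values are a description with no test. They were 4.85 (SE 1.37) for the fourth gene and 4.73 (SE 1.25) for the fifth on the log2 scale. The fourth took 0.166% to 1.29% of the exosome libraries of other lines and the fifth 0.156% to 0.971%, all below the OS-2 values. The first gene, at 0.0274% to 15.6% in exosomes of other lines, had an interaction value of 2.71 (SE 2.73), and the second, at 0% to 6.62%, one of 6.43 (SE 5.48). The third gave 0.98 (SE 2.72) and the sixth 2.79 (SE 1.10). Of the 2 lower genes named above, neither ENSCAFG00000001433 (0.55, SE 0.77, edgeR adjusted p = 0.783) nor ENSCAFG00000014345 (0.81, SE 1.06, edgeR adjusted p = 0.748) passed, and with all counts these 2 values turned to -0.79 and -0.59. With SEs of this size, these 2 tests do not show that OS-2 resembled the other lines in those genes.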

How the data were processed

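RNA-seq libraries of dog osteosarcoma cells and exosomes were compared. Exosomes were enriched with ExoQuick and libraries prepared with a SMARTer stranded kit for very low input, per the labels' protocols. The authors deposited whole-number read counts per gene for 24579 Ensembl identifiers. Trimmomatic 0.33.0, FastQC 0.11.5 and kallisto 0.43.0 were used, per the submitters' processing notes. The name under which the counts were deposited refers to Subread, whereas these notes list kallisto. Beyond that name, the sources used here do not state the program, strand setting or treatment of shared reads for the deposited counts. Values of overlapping or closely similar genes may therefore be split or merged, and duplicate reads cannot be told from separate molecules. The table has 1 column of values that fits no sample's labels, and it was not used.

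The RefSeq gene table paired 0 identifiers with a symbol, so 10 gene lists and the cell type markers could not be used, no sequences are shown, and 4 identifiers are named: of genes called with fractions not overlapping in CPM, the 2 higher with the highest smaller exosome CPM and the 2 lower with the highest smaller cell CPM. Other genes are given by rank or count. The comparison, the groups of genes and the tests were chosen with earlier results of these data known.

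Genes were tested with edgeR 4.0.16 (limma 3.58.1, R 4.3.3) by the quasi-likelihood F test, two-sided, with TMM scaling, filterByExpr (minimum count 10) and robust dispersions, fitting 18 libraries together (each line and fraction its own term), and Benjamini-Hochberg adjustment over all genes tested. Each SE is the absolute log2 fold change divided by the square root of the F statistic. It thus restates the test, depends on the prior count where counts are few, and is no separate estimate of spread. Expected numbers of genes under thinning were computed without random draws. Alternatives were other scalings, no filter, DESeq2 1.42.0, limma voom with quality weights, thinning, the OS-2 libraries alone, the cell letter as a replicate block, and leaving out each OS-2 library. The differences between letters A and B were correlated for all 6 pairs of lines, from 0.163 to 0.449. This pairs cell libraries across lines by the data and not by the labels. The fit reported has no block, and the fit with the letter as a block is an alternative, printed where it ends a call. They pair nothing between OS-2 cells and exosomes, whose numbers are other labels.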

Additional observations from a re-analysis of the deposited data

Results flagged for a closer look

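The exosome to cell difference of OS-2 departed from the mean of the other 3 lines, by the interaction test, in 1580 genes above and 617 below. The fourth and the fifth most abundant exosome gene were among those above, at 4.85 and 4.73 log2 units. These 2 genes were picked for their share of OS-2 exosomes, so their values are a description and support nothing. The cause was not tested. Groups of 2 libraries are too small for a test of outliers.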

How the results depend on the processing

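Among OS-2 genes called lower, the count of 2194 became 1211 with RLE scaling, 977 with upper quartile, 4277 with all counts, 890 with the counts left, 1329 with DESeq2 and 657 with thinning to the smallest total. The number higher became 2472 with thinning and 2162 with the OS-2 libraries alone, where fewer samples and genes entered. Genes above the mean difference of other lines numbered 575 with all counts and 616 with thinning, and those below 3436 with all counts, 928 with DESeq2 and 314 with thinning. In an alternative chosen after seeing the data, without the 6 genes and thinned to 177304 counts, 2314 were higher, 647 lower, 670 above and 329 below. Leaving out 1 OS-2 library gave 1346 to 1811 lower, 628 to 1180 above and 274 to 505 below. With the cell letter as a replicate block, 5203 were higher and 2132 lower, 1927 above and 803 below, all within 1.5 times, but ENSCAFG00000029369 (edgeR adjusted p = 0.0563) and ENSCAFG00000001433 (edgeR adjusted p = 0.0620) lost their calls. DESeq2 gave ENSCAFG00000029369 no adjusted p. No fold change of a named gene between OS-2 exosomes and cells changed direction.

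With genes over 0.5% of either exosome library the dominant share was 56.5% and 62.1% of exosomes 1 and 2, and with those over 2% it was 54.4% and 59.5%. Class 5 formed from cells B took 75.9% of cells A and 67.7% and 61.8% of exosomes 1 and 2, because ENSCAFG00000029384 and the third gene then belonged to it. Of the counts left it took 50.9% and 54.2% of exosomes, and with classes from cells A 52.3% and 55.7%, with 76.7% in cells B. With a minimum of 20 CPM, 15 abundant cell genes had no exosome count. The cause of these shifts was not tested beyond what is stated. Depth limits the exosome side most, where 3 counts make 13.7 to 16.9 CPM of the counts left.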
